A study of Homo sapiens with 15 samples.

Results

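The 10 SWI/SNF genes examined here were SMARCA4, SMARCA2, SMARCB1, SMARCC1, SMARCC2, SMARCD1, ARID1A, ARID1B, ARID2 and PBRM1. They were selected by gene symbol from a table of 37787 genes. All 10 were found, and all 10 passed the filter on low counts that left 13868 genes for testing. RNA was sequenced from HGrC1 cells, an immortalized human granulosa cell line that is not luteinized and carries normal FOXL2 alleles, in 15 libraries with 3 per condition. Cells at passage 14 were transfected with Lipofectamine for 4 h and kept without serum for another 24 h. Vectors cells received empty plasmids, FOXL2WT cells received SMAD3 with wild-type FOXL2, and FOXL2C134W cells received SMAD3 with the missense form of FOXL2 that marks adult granulosa cell tumours. FOXL2WT+FOXO1 and FOXL2C134W+FOXO1 cells received the same plasmids together with a constitutively active FOXO1. SMAD3 was therefore present in every condition other than Vectors, no condition carried FOXO1 alone or SMAD3 alone, and all values come from transient overexpression in 1 cell line. The labels name the replicates A, B and C without saying whether they were separate cultures, so p-values measure the spread between these libraries, which may be technical.

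SWI/SNF (BAF) complexes use the energy of ATP to slide or evict nucleosomes and so open promoters and enhancers to transcription factors. Each complex of the canonical BAF and PBAF forms holds 1 of a pair of ATPases, SMARCA4 (BRG1) or SMARCA2 (BRM). It sits on a core of SMARCC1, SMARCC2, SMARCD and SMARCB1 subunits. Canonical BAF is defined by ARID1A or ARID1B, and PBAF by ARID2 and the bromodomain protein PBRM1. Several of these genes are tumour suppressors, and loss of SMARCA4 defines small cell carcinoma of the ovary, hypercalcaemic type, while ARID1A is often mutated in ovarian clear cell carcinoma.

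Library totals ran from 14962245 to 25339094 estimated counts, and each of the 10 genes had between 478 and 3761 counts in every library. The transfected genes followed the labels. FOXL2 had a mean of 8.73 CPM (counts scaled to a common library total) in Vectors, 561 in FOXL2WT, 147 in FOXL2C134W, 384 in FOXL2WT+FOXO1 and 152 in FOXL2C134W+FOXO1. SMAD3 had means of 249, 2768, 843, 969 and 392 CPM in the same order, and FOXO1 had 13.2, 12.2, 12.0, 117 and 43.2 CPM. The amounts of transfected mRNA were thus unequal between the conditions compared below, and their part in the results was not tested. By anti-Flag immunoblot of cultures grown in parallel, the paper reports the FOXL2WT, FOXL2C134W and FOXO1 proteins as balanced. SMAD3 protein is not named in that report. Of 12 granulosa markers, 7 reached 1 CPM in every library, GATA4, WT1, FST and KRT18 among them, whereas FSHR, CYP19A1, INHA and AMHR2 stayed below 1 CPM in every library. Summed markers of theca cells stayed at or below 0.202 CPM. Some markers of other cell types were present, with sums of 332 to 389 CPM for 3 epithelial markers, nearly all from KRT19, 89.2 to 117 CPM for 3 leukocyte markers, nearly all from CD68, and 3.76 to 7.15 CPM for 3 endothelial markers, while the leukocyte marker PTPRC stayed at or below 0.247 CPM. The sum of 3 fibroblast markers, nearly all from COL1A1, with DCN at or below 0.336 CPM, was 1064 to 1206 CPM in FOXL2WT and 1341 to 1346 CPM in FOXL2C134W without overlap, and its part in the results was not tested. In such bulk samples of 1 cell line, fewer cells expressing a gene and less RNA per cell cannot be told apart.

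To show the DNA before annotated starts of SMARCA4 and ARID1A, the RefSeq promoter windows (GRCh38.p14, 250 bases before to 50 bases after each annotated start) of the 10 genes were examined. Windows were found for 7 of the genes and none was read for SMARCC1, SMARCC2 and ARID2. Printed here are the leading stretches of the SMARCA4 and ARID1A windows, before the start, that touch no annotated exon of the gene. Capitals mark CAGAC or its reverse complement GTCTG, the core letters bound by SMAD proteins. The stretch for the main SMARCA4 start, at 10961030, is chr19:10960780-10960931 (plus strand). That for a second start inside the gene, at 10984124, is chr19:10983874-10984120 (plus strand). That for the ARID1A start, at 26696015, is chr1:26695765-26696014 (plus strand). The ARID1A stretch lies inside the gene, which is annotated from 26693236.
SMARCA4 main start: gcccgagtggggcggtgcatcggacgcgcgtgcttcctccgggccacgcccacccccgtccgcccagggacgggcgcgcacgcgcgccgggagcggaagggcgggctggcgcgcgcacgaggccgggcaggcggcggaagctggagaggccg
SMARCA4 internal start: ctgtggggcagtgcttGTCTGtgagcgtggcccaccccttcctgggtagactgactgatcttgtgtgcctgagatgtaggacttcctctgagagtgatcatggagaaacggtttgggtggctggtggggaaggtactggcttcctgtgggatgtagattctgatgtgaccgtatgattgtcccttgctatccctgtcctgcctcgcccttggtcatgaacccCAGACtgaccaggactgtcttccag
ARID1A start: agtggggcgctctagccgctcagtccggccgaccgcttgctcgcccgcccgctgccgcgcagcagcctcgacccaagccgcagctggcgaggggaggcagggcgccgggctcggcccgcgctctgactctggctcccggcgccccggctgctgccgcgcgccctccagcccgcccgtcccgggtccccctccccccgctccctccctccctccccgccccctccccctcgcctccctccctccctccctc

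The stretch at the main SMARCA4 start and that at the ARID1A start are GC-rich, with 81.6% and 80.4% G or C, and neither holds CAGAC on either strand. The whole 300-base window at the internal SMARCA4 start holds CAGAC 4 times over both strands, and 1 copy each stands in windows of SMARCB1 and PBRM1 and in 2 windows of SMARCA2. This motif is common, since 45.26% of the 35116 promoters in the table hold it. TAAACA, the forkhead core, which 12.32% of all promoters hold, occurs in none of the 13 windows of these genes, and nor does the longer GTAAACA (3.42% of promoters), which contains it. A match or its lack describes these letters only. Among the transcript estimates, the 17 annotated SMARCA4 transcripts that begin within 500 bases of the main start took 76.5% ± 2.26 (SD, n = 3) of SMARCA4 reads in FOXL2WT and 80.6% ± 1.25 in FOXL2C134W. The 1 transcript at the internal start took 0.737% ± 0.545 and 0.463% ± 0.177. The remaining reads were assigned to transcripts that begin elsewhere in the gene. For ARID1A, the 3 transcripts near the printed start took 35.2% ± 6.49 of reads in FOXL2WT and 27.9% ± 7.24 in FOXL2C134W, and the other 14 transcripts, which begin elsewhere, took 64.8% and 72.1%.

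When levels were compared per transcript length, in TPM (reads divided by transcript length and scaled to a fixed total per library), SMARCB1 and SMARCD1, core subunits, were the most abundant of the 10, with condition means of 62.2 to 68.2 TPM and 64.2 to 71.3 TPM. These 2 changed places between conditions. SMARCA2 followed at 46.6 to 56.4 TPM, then SMARCC1 at 30.4 to 37.1 TPM and SMARCC2 at 23.3 to 39.7 TPM, whose order changed between conditions. That change was not seen when gene counts were divided by a fixed length per gene. SMARCC1 was then above SMARCC2 in every condition, with means of 33.9 and 31.4 TPM in Vectors and 36.1 and 34.2 TPM in FOXL2C134W. SMARCA4, at 18.5 to 30.4 TPM, and PBRM1, at 21.0 to 26.6 TPM, also changed places between conditions. The ARID subunits were the lowest, with ARID1A at 9.34 to 18.4 TPM, ARID1B at 8.56 to 11.9 TPM and ARID2 at 5.74 to 7.35 TPM. Annotated protein-coding transcripts made up 40.2% to 50.8% of SMARCA2 TPM and 93.1% to 98.3% of SMARCA4 TPM, as means per condition.

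**Figure D1:**
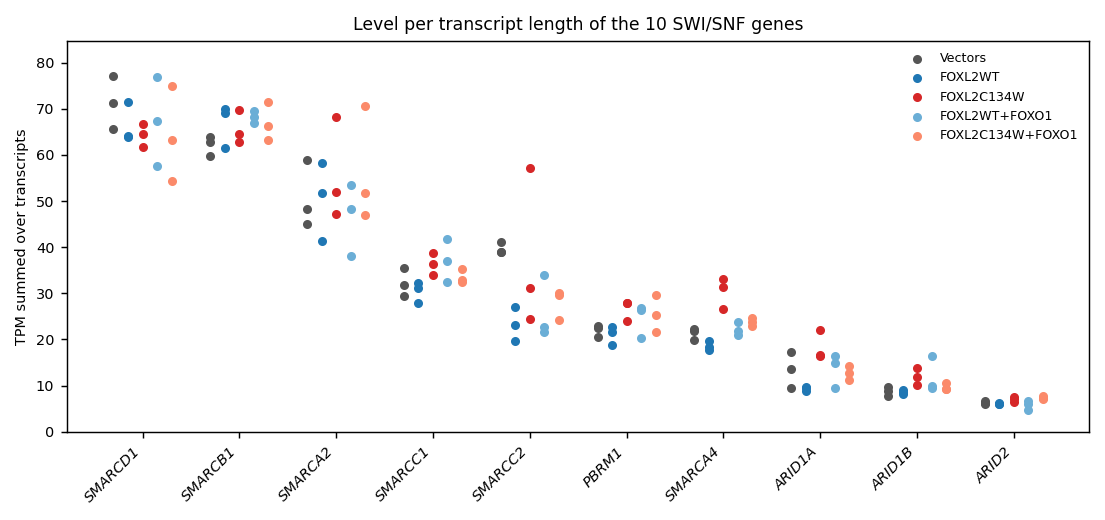
TPM summed over the annotated transcripts of each gene (y axis) for the 10 SWI/SNF genes, ordered by their mean over all libraries, with 1 point per library coloured by condition. SMARCB1 and SMARCD1 lie at the top, near 62 to 71 TPM on average, and ARID2 lies at the bottom, between 5.74 and 7.35 TPM on average.

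The comparison of FOXL2C134W with FOXL2WT asks how the tumour form of FOXL2 differs from the wild type when both are given with SMAD3. The mRNAs of both ATPases, of both canonical BAF ARID subunits, of SMARCC2 and of PBRM1 were higher with FOXL2C134W, by 1.15- to 1.59-fold. In all, 6 of the 10 genes rose and none fell at an adjusted p under 0.05 (edgeR quasi-likelihood test, Benjamini-Hochberg over all genes), where 7.13% of the 13868 genes tested were called higher and 4.12% lower. The libraries of the same 6 genes did not overlap between the groups in the higher direction, as did those of 14.8% of all genes tested. The median log2 fold change of the 10 genes was 0.25, against -0.01 over all genes tested. The 4 genes that did not pass were SMARCB1, SMARCC1, SMARCD1 and ARID2. With DESeq2 and transcript length offsets, the route taken in the study's methods, the count fell to 2, SMARCA4 and ARID1A, whereas DESeq2 on the deposited gene counts gave 6.

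SMARCA4, the ATPase BRG1, had the largest log2 fold change of the 10 in the edgeR fit to all libraries, while with DESeq2 and transcript length offsets that of ARID1A was larger. The SMARCA4 level was 73.3, 66.7 and 73.2 CPM in FOXL2WT (replicates A, B and C) and 106, 115 and 119 CPM in FOXL2C134W. Every FOXL2C134W library was thus above every FOXL2WT library, and above those of the other 3 conditions. The log2 fold change was 0.67 ± 0.06 (SE, edgeR adjusted p = 2e-06). It stayed called in all 10 alternative fits, at 0.57 to 0.68, and whichever of the 6 libraries was left out, at 0.64 to 0.72.

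SMARCA2, the alternative ATPase BRM, had 60.3, 56.9 and 61.8 CPM in FOXL2WT and 69.1, 73.3 and 79.0 CPM in FOXL2C134W. The groups did not overlap, but the highest Vectors library, at 71.3 CPM, lay within the FOXL2C134W range. The log2 fold change was 0.30 ± 0.06 (SE, edgeR adjusted p = 0.0029), and with DESeq2 and transcript length offsets it was 0.12 (adjusted p = 0.8).

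ARID1A, the DNA-binding subunit of canonical BAF, had 54.2, 56.1 and 52.3 CPM in FOXL2WT and 71.8, 87.3 and 83.3 CPM in FOXL2C134W. Here too all FOXL2C134W libraries were above those of every other condition. The log2 fold change was 0.58 ± 0.07 (SE, edgeR adjusted p = 9.3e-05), and it was called in all 10 alternatives, at 0.45 to 0.95, and without each library, at 0.52 to 0.66. The highest of these, 0.95, came from DESeq2 with transcript length offsets. That fit uses lengths weighted by the TPM of each transcript, which estimates for short models can move. Retained-intron models held a mean of 1.38% of ARID1A TPM in FOXL2WT and 20.5% in FOXL2C134W, but 0.534% and 1.8% of reads. Their part in the value of 0.95 was not tested. ARID1B, its mutually exclusive paralog, had 42.4, 40.1 and 45.5 CPM in FOXL2WT and 49.98, 61.8 and 61.7 CPM in FOXL2C134W. Replicate A of FOXL2C134W was the lowest of its group for each of the 10 genes except SMARCB1 and SMARCD1, where it was the highest. It also had the most FOXL2 and SMAD3 mRNA of its group, at 175 and 885 CPM. Over all genes tested, leaving it out gave 1372 called higher and 748 lower, against 989 and 571 with all libraries. Leaving out replicate B gave 605 and 177, and leaving out replicate C gave 597 and 269. The ARID1B log2 fold change was 0.43 ± 0.08 (SE, edgeR adjusted p = 0.0026), and it was not called with DESeq2 and transcript length offsets (0.45, adjusted p = 0.11).

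SMARCC2 (BAF170), a scaffold of the core, had 55.4, 51.1 and 57.0 CPM in FOXL2WT and 65.9, 70.7 and 75.2 CPM in FOXL2C134W, again without overlap. Its log2 fold change was 0.37 ± 0.06 (SE, edgeR adjusted p = 0.001), and 0.65 with DESeq2 and transcript length offsets, where the adjusted p was 0.092. Its paralog SMARCC1 (BAF155) had 137, 138 and 148 CPM in FOXL2WT and 141, 156 and 152 CPM in FOXL2C134W, and these groups overlapped. For SMARCC1 the log2 difference was 0.09 with a 95% interval of -0.02 to 0.20 (edgeR adjusted p = 0.33).

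PBRM1, the polybromo subunit of PBAF, had 83.9, 85.2 and 83.0 CPM in FOXL2WT and 90.0, 102 and 97.4 CPM in FOXL2C134W. The groups did not overlap, but the log2 fold change of 0.20 ± 0.06 (SE, edgeR adjusted p = 0.03) was small and was called in only 1 of the 6 fits that left out a library, the one without FOXL2C134W replicate A. It was also not called with a gene length offset, where it was 0.10 (adjusted p = 0.14). ARID2, the other PBAF subunit, differed by 0.19 on the log2 scale (95% interval 0.01 to 0.36, edgeR adjusted p = 0.16), with 37.4 to 39.1 CPM in FOXL2WT and 39.0 to 45.9 CPM in FOXL2C134W.

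SMARCB1 and SMARCD1, both core subunits, did not pass the test. SMARCB1 had 73.6 to 79.5 CPM in FOXL2WT and 70.9 to 81.7 CPM in FOXL2C134W, a log2 difference of -0.04 (95% interval -0.15 to 0.08). SMARCD1 had 92.5 to 97.0 CPM in FOXL2WT and 86.3 to 91.4 CPM in FOXL2C134W, so that the groups stood apart in the lower direction, as did those of 15.6% of all genes tested. The SMARCD1 log2 difference was -0.09 (95% interval -0.20 to 0.03, edgeR adjusted p = 0.33).

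Gene length moved with this comparison. The 10% of the tested genes with the longest transcripts had a median log2 fold change of 0.13, and the 10% with the shortest had -0.09. SMARCA4, ARID1A and ARID1B lie at the 89.7, 94.6 and 94.9 percentiles of transcript length, PBRM1 at 89.5, SMARCC1 at 92.8 and ARID2 at 98.1. With an offset for gene length, SMARCA4, SMARCA2, SMARCC2, ARID1A and ARID1B stayed called, with log2 fold changes of 0.57, 0.34, 0.35, 0.45 and 0.30. The 10% of genes highest in GC content had a median of 0.0028, against -0.0079 for the lowest 10%.

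**Figure D2:**
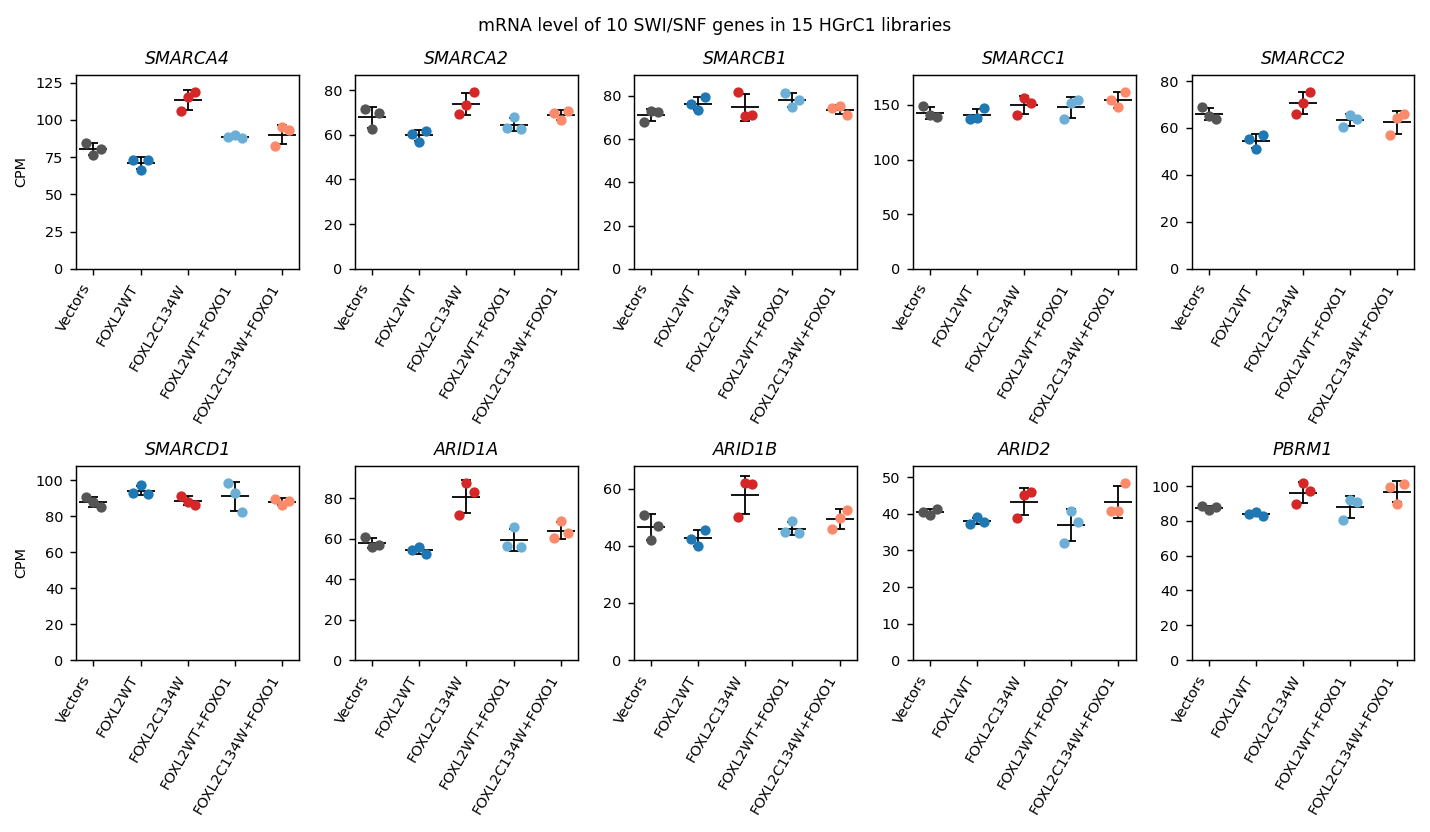
Normalized level in CPM (y axis, from 0) of the 10 SWI/SNF genes in each of the 15 libraries, by condition (x axis), with points for libraries and black bars for the mean ± SD of 3. SMARCA4 and ARID1A are highest in the 3 FOXL2C134W libraries, at 106 to 119 and 71.8 to 87.3 CPM, while SMARCB1 and SMARCD1 stay close to level across conditions.

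**Figure D3:**
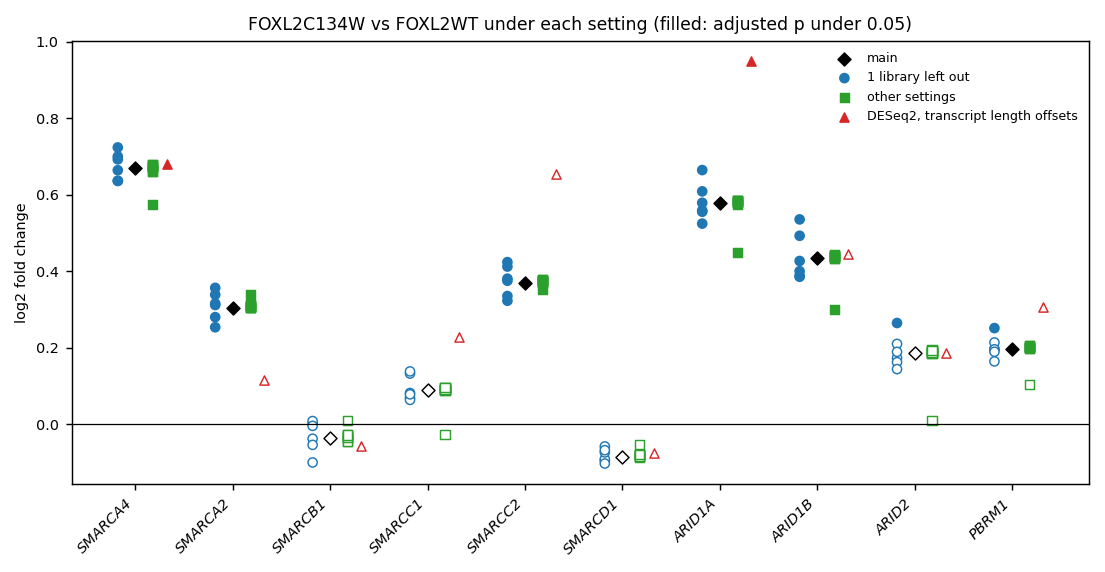
Log2 fold change of FOXL2C134W over FOXL2WT (y axis) for each of the 10 genes under the main edgeR fit, with 1 library left out, and under the other settings, where filled symbols have an adjusted p under 0.05. SMARCA4 and ARID1A are filled throughout, PBRM1 is filled in 1 of 6 fits with a library left out, and the DESeq2 fit with transcript length offsets fills 2 of the 10 genes.

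The comparisons with Vectors place these differences relative to cells that received empty plasmids. They share the Vectors libraries, so their values are given side by side. With FOXL2C134W, SMARCA4, ARID1A and ARID1B were higher than in Vectors, which is 3 of 10 genes, where 7.48% of all genes tested were called higher. With FOXL2WT, SMARCC2 alone of the 10 was called, and it was lower, where 3.61% of all genes tested were called lower. SMARCA4 had 84.5, 76.2 and 80.2 CPM in Vectors, between the FOXL2WT and FOXL2C134W ranges and overlapping neither.

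The SMARCA4 log2 fold change was 0.50 ± 0.06 in FOXL2C134W over Vectors (SE, edgeR adjusted p = 1.7e-05) and -0.17 ± 0.06 in FOXL2WT over Vectors (adjusted p = 0.094, not called). ARID1A had 60.7, 56.1 and 57.1 CPM in Vectors, overlapping FOXL2WT and below FOXL2C134W. Its log2 fold changes were 0.48 ± 0.07 (SE, edgeR adjusted p = 0.00021) with FOXL2C134W and -0.10 ± 0.08 (adjusted p = 0.49) with FOXL2WT. For ARID1A and ARID1B the call against Vectors was lost with DESeq2 and transcript length offsets (adjusted p = 0.19 and 0.14), and ARID1B also lost it without Vectors replicate B or FOXL2C134W replicate B or C.

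ARID1B had 50.8, 42.1 and 46.9 CPM in Vectors, and the highest of these was above FOXL2C134W replicate A, at 49.98 CPM. Its log2 fold changes were 0.31 ± 0.08 (SE, edgeR adjusted p = 0.016) with FOXL2C134W and -0.13 ± 0.09 (adjusted p = 0.44) with FOXL2WT. SMARCC2 had 68.7, 65.2 and 63.7 CPM in Vectors, all above FOXL2WT and overlapping FOXL2C134W. SMARCC2 fell by 0.27 ± 0.06 in FOXL2WT (SE, edgeR adjusted p = 0.016) and differed by 0.10 ± 0.06 in FOXL2C134W (adjusted p = 0.32). The SMARCC2 call in FOXL2WT was lost without Vectors replicate A, FOXL2WT replicate A or FOXL2WT replicate B, and with DESeq2 and transcript length offsets.

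SMARCA2 and PBRM1, called between the FOXL2 forms, were not called against Vectors in either condition. SMARCA2 differed from Vectors by -0.18 with FOXL2WT and by 0.12 with FOXL2C134W on the log2 scale (edgeR adjusted p = 0.084 and 0.18). PBRM1 differed by -0.06 and 0.14 (adjusted p = 0.59 and 0.12).

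The next comparisons ask what the active FOXO1 changed on each FOXL2 background. With FOXL2C134W, adding FOXO1 lowered SMARCA4 and ARID1A, 2 of the 10 genes, where 0.707% of all genes tested were called lower. SMARCA4 went from 106, 115 and 119 CPM in FOXL2C134W to 82.6, 95.03 and 93.1 CPM in FOXL2C134W+FOXO1, with no overlap. It fell by 0.33 ± 0.06 on the log2 scale (SE, edgeR adjusted p = 0.015). ARID1A went from 71.8, 87.3 and 83.3 CPM to 60.4, 68.8 and 63.0 CPM, also with no overlap, and fell by 0.33 ± 0.07 (SE, edgeR adjusted p = 0.035).

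Both calls were lost with a GC content offset, where the values were -0.28 for SMARCA4 and -0.32 for ARID1A (edgeR adjusted p = 0.062 and 0.066), when only the 2 conditions were fitted, where both were -0.33 (adjusted p = 0.065 and 0.11), and without FOXL2C134W replicate B or C or FOXL2C134W+FOXO1 replicate A or C. The ARID1A call was also lost with DESeq2 and transcript length offsets (-0.52, adjusted p = 0.32), and that of SMARCA4 with the replicate letters as a block beside the GC content offset. Leaving out 1 library at a time gave -0.38 to -0.27 for SMARCA4 and -0.42 to -0.28 for ARID1A. SMARCC2 was 56.9, 64.4 and 65.7 CPM with FOXO1, below all FOXL2C134W libraries, but its difference of -0.18 was not called (edgeR adjusted p = 0.24). ARID1B differed by -0.22 (adjusted p = 0.27), with 1 library at 52.6 CPM above the lowest FOXL2C134W library at 49.98 CPM, and PBRM1 by 0.01 (adjusted p = 0.98).

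With FOXL2WT, adding FOXO1 gave no call among the 10 genes, where 0.0505% of all genes tested were called in either direction. At an unadjusted p under 0.05 there were 2 of the 10, SMARCA4 and SMARCC2, and DESeq2 on the gene counts called 1. SMARCA4 had 88.7, 89.7 and 87.9 CPM in FOXL2WT+FOXO1, above all FOXL2WT libraries, with a log2 difference of 0.32 ± 0.06 (SE, edgeR adjusted p = 0.06). This SMARCA4 difference was called in 5 of the 10 alternative fits, which gave 0.28 to 0.32. It was called in 0 of the 6 fits that left out a library. SMARCC2 had 60.5, 65.6 and 63.7 CPM, also above FOXL2WT, with a difference of 0.21 ± 0.06 (adjusted p = 0.31). ARID1A had 56.4, 65.7 and 56.1 CPM, a difference of 0.14 with a 95% interval of -0.02 to 0.30 (adjusted p = 0.62).

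The difference between the 2 FOXO1 effects was tested as an interaction, the effect in FOXL2C134W minus the effect in FOXL2WT. SMARCA4, SMARCC2 and ARID1A, 3 of the 10 genes, passed the test, all with a negative value, where 1.25% of all genes tested were called negative. The value was -0.65 for SMARCA4 (95% interval -0.82 to -0.47, edgeR adjusted p = 0.0012). It was -0.47 for ARID1A (95% interval -0.69 to -0.25, edgeR adjusted p = 0.033) and -0.39 for SMARCC2 (95% interval -0.58 to -0.20, edgeR adjusted p = 0.036). ARID1B, at -0.33 (95% interval -0.58 to -0.08), and SMARCA2, at -0.21 (95% interval -0.39 to -0.03), did not pass (adjusted p = 0.23 and 0.29). The SMARCA4 call held in all 10 alternatives and without each of the 12 libraries, whereas SMARCC2 kept it without 5 of the 12 and ARID1A without 4 of the 12. SMARCC2 lost it without FOXL2WT replicate A or B, FOXL2C134W replicate B or C, FOXL2WT+FOXO1 replicate B or C, or FOXL2C134W+FOXO1 replicate A, and with DESeq2 and transcript length offsets. ARID1A lost it without any 1 FOXL2WT library, FOXL2C134W replicate B or C, FOXL2WT+FOXO1 replicate B, or FOXL2C134W+FOXO1 replicate A or C, and both lost it when only the 4 conditions were fitted. With DESeq2 and transcript length offsets the ARID1A value was -1.07 (adjusted p = 0.026) and that of SMARCC2 -0.59 (adjusted p = 0.61). The limit given above for ARID1A in that fit applies here too. For the interaction, the 10% of genes highest in GC content had a median of -0.069, against 0.046 for the lowest 10%.

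**Figure D4:**
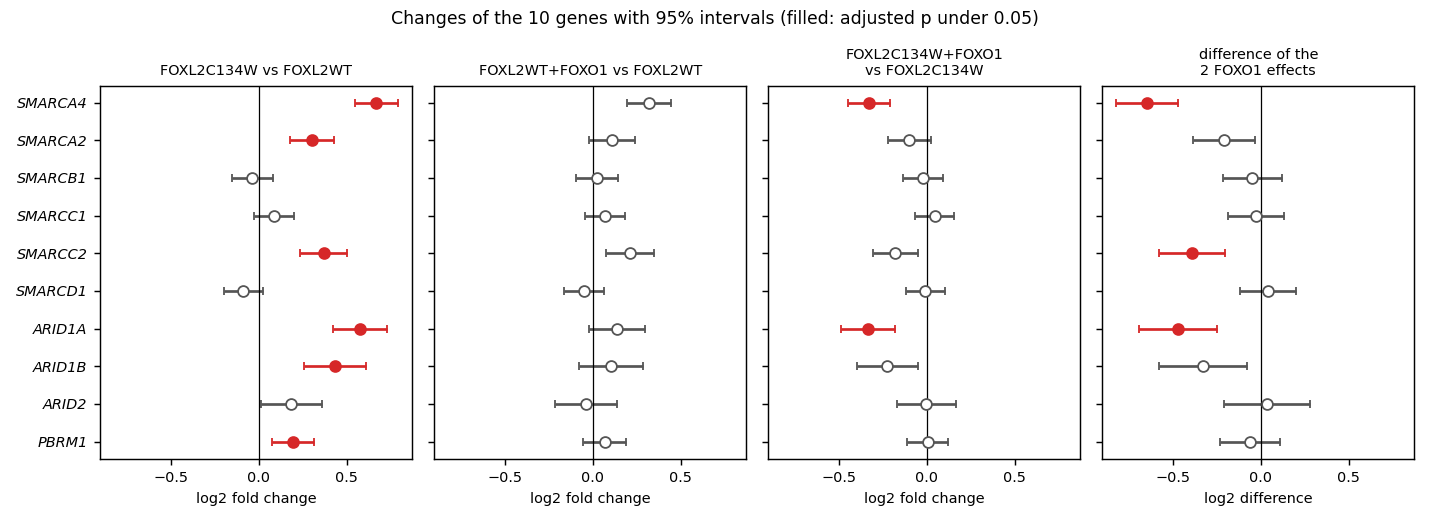
Log2 differences with 95% intervals (x axis) of the 10 genes (y axis) for FOXL2C134W over FOXL2WT, for FOXO1 added to FOXL2WT and to FOXL2C134W, and for the difference between these 2 FOXO1 effects, with filled red points at an adjusted p under 0.05. SMARCA4 lies at 0.67, 0.32, -0.33 and -0.65 in the 4 panels.

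Once FOXO1 was present on both backgrounds, the FOXL2 forms gave no call among the 10 genes, where 0.144% of all genes tested were called. The number at an unadjusted p under 0.05 was 2, ARID2 and PBRM1, and DESeq2 on the gene counts called 0. The SMARCA4 groups overlapped, with 87.9 to 89.7 CPM in FOXL2WT+FOXO1 and 82.6 to 95.03 CPM in FOXL2C134W+FOXO1, a difference of 0.02 (95% interval -0.10 to 0.15). The largest value was that of ARID2, 0.22 (95% interval 0.05 to 0.40, edgeR adjusted p = 0.26). Against FOXL2WT without FOXO1, FOXL2C134W+FOXO1 still had more SMARCA4, by 0.34 ± 0.06 on the log2 scale (SE, edgeR adjusted p = 0.0071), the only one of the 10 genes called, where 0.685% of all genes tested were called higher. In that comparison 8 of the 10 genes had an unadjusted p under 0.05, and DESeq2 on the gene counts called 4. The SMARCA4 call was lost without FOXL2WT replicate B (adjusted p = 0.069). The PBRM1, ARID1A and SMARCA2 differences there were 0.20, 0.24 and 0.20 (adjusted p = 0.07, 0.095 and 0.084).

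SMARCB1, SMARCC1, SMARCD1 and ARID2 were called in none of the 8 comparisons in the edgeR fit to all libraries, where 4 of the 32 tests had an unadjusted p under 0.05 and DESeq2 made 0 calls. ARID2 was called between the FOXL2 forms with the replicate letters as a block beside the GC content offset and without FOXL2C134W replicate A. Their log2 differences ran from -0.08 to 0.10 for SMARCB1, -0.03 to 0.13 for SMARCC1, -0.10 to 0.10 for SMARCD1 and -0.09 to 0.22 for ARID2. The bounds of the 95% interval in FOXL2C134W over FOXL2WT, given above, leave room for differences of up to 0.36 for ARID2.

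The ratio between paralogs in each library is given as a description. CPM is not scaled to transcript length, so a ratio does not show which paralog was more abundant. In Vectors, for example, SMARCA4 had a mean of 21.4 TPM and SMARCA2 50.8 TPM. Protein-coding transcripts made up 93.5% of this TPM for SMARCA4 but 42.6% for SMARCA2. Retained-intron models held 34.4% of SMARCA2 TPM in Vectors and 6.14% of its reads. Summed TPM therefore does not show which coding mRNA was more abundant either. The log2 ratio of SMARCA4 over SMARCA2 in CPM was 0.25 ± 0.04 in Vectors (SD, n = 3), 0.25 ± 0.03 in FOXL2WT and 0.62 ± 0.03 in FOXL2C134W. With FOXO1 it was 0.46 ± 0.05 on FOXL2WT and 0.39 ± 0.14 on FOXL2C134W. The FOXL2C134W libraries, at 0.59 to 0.65, were above all others, the nearest being a FOXL2C134W+FOXO1 library at 0.52. The ratio of SMARCC1 over SMARCC2 was 1.37 ± 0.06 in FOXL2WT, against 1.11 ± 0.01 in Vectors and 1.09 ± 0.07 in FOXL2C134W. It was 1.22 ± 0.05 in FOXL2WT+FOXO1 and 1.31 ± 0.12 in FOXL2C134W+FOXO1, where 1 library, at 1.44, was above every FOXL2WT library. The ratio of ARID1A over ARID1B was 0.35 ± 0.14 in FOXL2WT and 0.48 ± 0.05 in FOXL2C134W, and these libraries overlapped. No test was run on the ratios.

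**Figure D5:**
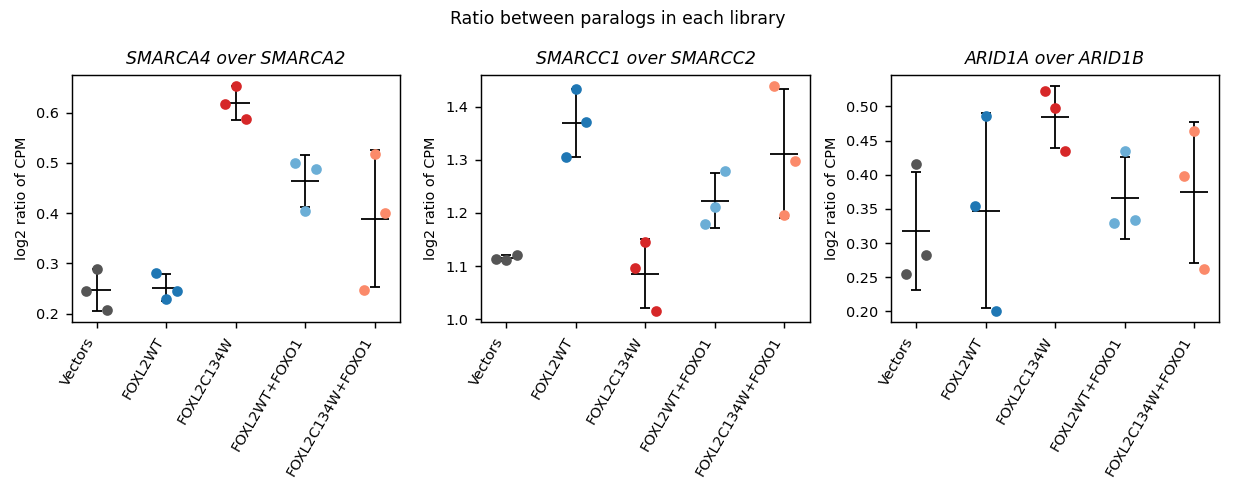
Log2 ratio of CPM between paralogs (y axis) in each library for SMARCA4 over SMARCA2, SMARCC1 over SMARCC2 and ARID1A over ARID1B, by condition (x axis), with black bars for the mean ± SD of 3. The FOXL2C134W libraries have SMARCA4 over SMARCA2 at 0.59 to 0.65, above the other 12 libraries, and SMARCC1 over SMARCC2 is 1.30 to 1.43 in FOXL2WT, overlapping FOXL2C134W+FOXO1 at 1.20 to 1.44.

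Of 21 further subunit genes, 18 were tested, and ACTL6B, BCL11A and BCL11B, subunits or partners of neural and lymphoid forms, were not because their counts were too low. Between FOXL2C134W and FOXL2WT, 1 of the 18 was called higher and 1 lower. Of all genes tested, 7.13% were called higher and 4.12% lower, so these counts are near the shares over all genes. BICRA (GLTSCR1), which defines the noncanonical GBAF form, had 6.44, 5.44 and 5.86 CPM in FOXL2WT and 9.62, 9.11 and 7.88 CPM in FOXL2C134W, and rose by 0.58 ± 0.14 (SE, edgeR adjusted p = 0.013). BCL7B, an accessory subunit, had 56.9, 58.4 and 54.2 CPM in FOXL2WT and 50.5, 48.1 and 44.4 CPM in FOXL2C134W, and fell by 0.24 ± 0.06 (SE, edgeR adjusted p = 0.0086). Neither pair of groups overlapped. Without FOXL2WT replicate B, and with DESeq2 and transcript length offsets, none of the 18 was called in either direction, BICRA was also lost without FOXL2C134W replicate B, and BCL7B without FOXL2C134W replicate C. Without FOXL2C134W replicate A, 4 were called higher and 1 lower, and with the GC content offset 3 higher and 2 lower. The median log2 fold change of the 18 was 0.04, against 0.25 for the 10 listed genes.

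Against Vectors, 3 of the 18 rose in FOXL2C134W, where 7.48% of all genes tested were called higher. They were BICRA, the GBAF bromodomain subunit BRD9 and the actin gene ACTB. In FOXL2WT, where 2.46% of all genes tested were called higher, 3 rose, namely SMARCD3, a paralog of SMARCD1, the accessory subunit BCL7A, and ACTB, whose product has many roles beyond chromatin and whose reads can be shared with other actin genes and pseudogenes. SMARCD3 had 22.5, 22.1 and 24.3 CPM in Vectors and 25.9, 32.2 and 29.1 CPM in FOXL2WT, a log2 fold change of 0.33 ± 0.09 (SE, edgeR adjusted p = 0.026). The 3 calls in FOXL2WT fell to 0 without Vectors replicate A, FOXL2WT replicate B or FOXL2WT replicate C, to 1 without Vectors replicate B or FOXL2WT replicate A, to 2 without Vectors replicate C, and to 1 with DESeq2 and transcript length offsets. Those in FOXL2C134W ran from 2 to 4 with 1 library left out and fell to 1 with those offsets. In the main edgeR fit none of the 18 was called in the 5 comparisons that involve FOXO1. There 9 of the 90 tests had an unadjusted p under 0.05, and DESeq2 on the gene counts made 3 calls. Some other edgeR settings made single calls. The filter of 10 counts in every sample gave 1 lower for FOXO1 added to FOXL2C134W. The GC content offset gave 1 higher and 1 lower for FOXL2C134W+FOXO1 against FOXL2WT.

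The genes whose pattern over the 15 libraries was most like that of SMARCA4 were found by the root mean square difference of centred log2 CPM. Among the 5 nearest were MYH9 at 0.055, PRRC2B at 0.075, FLNC at 0.076 and MAP4 at 0.084, against a median of 0.266 over 13867 genes. MYH9, the heavy chain of non-muscle myosin IIA, had means of 1306 CPM in Vectors, 1134 in FOXL2WT, 1841 in FOXL2C134W, 1332 in FOXL2WT+FOXO1 and 1452 in FOXL2C134W+FOXO1, the same order as SMARCA4. ARID1A was 24th in that order and ARID1B was 48th, with SMARCC2 at 240 and SMARCA2 at 359, while SMARCB1 and SMARCD1 stood at 5403 and 6777. All these profiles come from the same libraries and share their depth and composition.

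At the level of transcripts, 1 ARID1A model stood out after its values were seen. ARID1A-203, a retained-intron transcript of 580 bases, was estimated at 0 in all 3 FOXL2WT libraries and at 21.9%, 26.7% and 9.69% of ARID1A TPM in FOXL2C134W. It was also at 0 in 1 library each of Vectors, FOXL2WT+FOXO1 and FOXL2C134W+FOXO1, and at 31.5% and 24.8% in the other Vectors libraries, so its share varied widely within conditions. The transcripts ARID1A-201 and ARID1A-212, both annotated as protein coding, together gave most of the TPM, with means of 28.3% and 59.8% in FOXL2WT and 17.4% and 50.5% in FOXL2C134W. For SMARCA4, 2 of the coding models swung widely between replicates, with 21.9% ± 24.9 for SMARCA4-253 and 21.0% ± 21.9 for SMARCA4-204 in FOXL2WT (SD, n = 3). A further coding model, SMARCA4-254, was steadier in FOXL2WT, at 20.9% ± 6.75, and had 17.2% ± 9.6 in FOXL2C134W. The estimates thus do not resolve which coding isoform carried the difference. An exact 0 of this kind can be a failed estimate for short models that overlap longer ones.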

How the data were processed

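RNA-seq libraries of 75-bp single-end reads were quantified by the authors with Salmon 1.1.0 on GRCh38/hg38 (submitters' processing notes). The authors deposited estimated counts per gene, summed from transcripts, rounded and not normalized, and a TPM table per library, in which each transcript is scaled to length and library total by the authors' run. Samples were grouped from their labels. The 10 genes and all lists were chosen with earlier results of these data known.

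All 15 libraries were fitted together in edgeR 4.0.16 (R 4.3.3, filterByExpr, TMM, quasi-likelihood test). A call is an adjusted p (Benjamini-Hochberg, all genes tested) under 0.05. CPM uses TMM-scaled totals. Named genes were the 10, the transfected genes, other subunits called between FOXL2C134W and FOXL2WT or with FOXO1, the 5 genes nearest to SMARCA4 (1 of which is not reported here), and transcripts with at least 10% of a gene's TPM. Further subunits are named after their values were seen. Alternatives were DESeq2 1.42.0 with and without transcript length offsets, other filters and scaling, length and GC offsets (lowess span 0.3, GENCODE 44, which held 98.4% of transcripts), the replicate letters as a block, and each library left out. The fit was tested on simulated data. Precision is set by counting error together with the spread between replicates. Protein sequences were not analysed here.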

Additional observations from a re-analysis of the deposited data

Results flagged for a closer look

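In 3 of the 10 genes the effect of FOXO1 differed between the FOXL2 forms by the interaction test of edgeR. Of all genes tested, 1.25% were called negative in this test. The difference, FOXL2C134W minus FOXL2WT on the log2 scale, was -0.65 for SMARCA4 (adjusted p = 0.0012), -0.47 for ARID1A (adjusted p = 0.033) and -0.39 for SMARCC2 (adjusted p = 0.036). With 1 library left out at a time, the SMARCA4 call held in all 12 fits, that of SMARCC2 in 5 and that of ARID1A in 4. In each of these 3 genes FOXO1 went with a higher mean on FOXL2WT and a lower mean on FOXL2C134W. The transfected SMAD3 mRNA was lower with FOXO1 on both backgrounds, at 969 against 2768 CPM with FOXL2WT and 392 against 843 CPM with FOXL2C134W. FOXO1 mRNA was itself unequal, with means of 117 CPM in FOXL2WT+FOXO1 and 43.2 CPM in FOXL2C134W+FOXO1. The part of these amounts in the result was not tested. With 3 libraries per condition no test for single outlying libraries was run, beyond leaving out each library in turn.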

How the results depend on the processing

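The number of the 10 genes called was close to that of the main fit in most settings, with these exceptions. Keeping genes with 1 count in any sample gave 3 calls for FOXL2WT against Vectors, 2 for FOXO1 added to FOXL2WT, 1 between the FOXL2 forms with FOXO1 and 6 for FOXL2C134W+FOXO1 against FOXL2WT. Requiring 10 counts in every sample, or a gene length offset, gave 1 for FOXO1 added to FOXL2WT, and the length offset gave 2 for FOXL2C134W+FOXO1 against FOXL2WT. The GC content offset gave 2 for FOXL2WT against Vectors, 0 for FOXO1 added to FOXL2C134W and 2 for FOXL2C134W+FOXO1 against FOXL2WT. Fitting only the groups compared gave 3, 1, 0, 4 and 1 for FOXL2WT against Vectors, FOXO1 on FOXL2WT, FOXO1 on FOXL2C134W, FOXL2C134W+FOXO1 against FOXL2WT and the interaction. DESeq2 gave 1 for FOXO1 on FOXL2WT and 4 for FOXL2C134W+FOXO1 against FOXL2WT. DESeq2 with transcript length offsets gave 0 and 1 for FOXL2WT and FOXL2C134W against Vectors, 2 between the FOXL2 forms and 1 for FOXO1 on FOXL2C134W. The cause of these shifts was not tested.

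The letters A, B and C did not pair the libraries, since same-letter libraries had correlations of -0.164 to 0.166 with a median of 0.0036 over 30 pairs. The replicate block gave 6 calls between the FOXL2 forms, 2 for FOXO1 on FOXL2C134W and 3 for the interaction, the counts of the fit without it. The replicate block with the GC content offset gave 2 for FOXL2WT against Vectors, 1 for FOXO1 on FOXL2C134W and 3 for FOXL2C134W+FOXO1 against FOXL2WT.

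Leaving out 1 library at a time gave 0 to 2 calls for FOXL2WT against Vectors, 2 to 4 for FOXL2C134W against Vectors, 5 to 7 between the FOXL2 forms, 0 to 3 for FOXO1 on FOXL2C134W, 0 to 2 for FOXL2C134W+FOXO1 against FOXL2WT and 1 to 4 for the interaction.

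Values near 0 changed sign in 6 of the refitted log2 values, and none of these was called. With the length offset they were 0.0092 for SMARCB1 and -0.028 for SMARCC1 between the FOXL2 forms and -0.018 for SMARCA4 between the FOXL2 forms with FOXO1. Without 1 library at a time, SMARCB1 ran from -0.10 to 0.0078 and SMARCA4 from -0.015 to 0.084 in the same comparisons.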
